A study of Mus musculus with 6 samples.

Results

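The 6 genes described here are *Csf1r*, which encodes the colony stimulating factor 1 receptor, its ligands *Csf1* and *Il34*, and the transcription factor genes *Spi1* (PU.1), *Irf8* and *Sall1*. They were chosen by name for their known place in microglial biology, with earlier results of these data known, and matched by gene symbol. All 6 carried the same identifier in the cortical libraries (31053 genes listed) and in the hippocampal libraries (27998 genes listed). The question was which cell types hold the transcripts of the ligands and which hold those of the receptor and of the lineage factors.

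CSF1R is a receptor tyrosine kinase that microglia and other tissue macrophages need to survive and divide. It is bound by CSF1 and by interleukin 34, ligands unrelated in sequence, so that the cells that make them can set how many macrophages a tissue keeps. PU.1 is an ETS family factor that directs cells to the myeloid lineage and acts on many macrophage genes, *Csf1r* among them. IRF8 is an interferon regulatory factor that partners PU.1 in myeloid cells. SALL1 is a zinc finger factor that among macrophages is known as a mark of microglia, and it is also used by other cells in development.

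The data are single-cell RNA sequencing counts from freshly dissociated brain of female C57Bl/6J mice, in which no cell type had been sorted. Prep 1 was the cerebral cortex at an age of 3 weeks and prep 3 the hippocampus at an age of 5 weeks. In both, cells of 3 mice were pooled into 1 suspension that was run as 3 technical replicates, giving 6 libraries in all but 1 biological sample per region. Region, age, preparation and gene annotation change together and cannot be told apart, so values of the regions are set side by side and no difference between them was tested.

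Levels are given as CPM, in which the unique molecular identifiers (UMIs) of a gene, summed over the cells of a class, are divided by all UMIs of those cells and scaled to the same total in every class. Errors are the SD over the 3 technical replicates, and intervals are 95% counting intervals, and neither covers the spread between animals. Of 33273 barcodes, 27530 were kept, 13320 from the cortex and 14210 from the hippocampus, and library totals ranged from 39662203 to 50024850 UMIs. Some kept cells carried a barcode also listed, kept or not, in another library of their region, 18 to 29 per cortical library and 225 to 274 per hippocampal library. Clusters were named from marker lists that hold none of the 6 genes, so each name means "like" that type: 11 classes of at least 50 cells were named in the cortex and 13 in the hippocampus. Microglia were the largest class, with 6181 cortical and 5905 hippocampal cells. The cortical border macrophages (109 cells) were led by *H2-Aa* and *Cd74*, antigen presentation genes, as well as by *Pf4* and *Mrc1*, whereas *Pf4* and *Mrc1* led in the hippocampus (147 cells). The cortical immature neurons (119 cells) were also led by the cell cycle genes *Top2a* and *Mki67*, and mature neurons were named in the hippocampus alone (83 cells, led by *Reln*).

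RefSeq promoter windows, from 250 bases before to 50 bases after the start (GRCm38.p6), were matched for 3 of the 6 genes: *Csf1*, *Irf8* and *Sall1*. They are shown because *Irf8* and *Sall1* were both highest in microglia whereas *Csf1* was spread over vascular, glial and microglial classes. The 100 bases before each start are printed on the strand of the gene, with letters of a motif found in capitals.
Csf1 (chr3:107760470-107760569, minus strand): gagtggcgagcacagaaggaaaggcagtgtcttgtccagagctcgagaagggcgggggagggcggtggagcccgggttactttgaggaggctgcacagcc
Irf8 (chr8:120736258-120736357, plus strand): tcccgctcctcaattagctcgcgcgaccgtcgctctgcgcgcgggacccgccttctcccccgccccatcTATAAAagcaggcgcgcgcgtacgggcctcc
Sall1 (chr8:89044163-89044262, minus strand): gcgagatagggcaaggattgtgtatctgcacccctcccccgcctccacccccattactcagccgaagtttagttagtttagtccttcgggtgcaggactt
The 300-base windows were searched on both strands for a PU.1 motif (GAGGAAGT, in 3.2% of 32851 windows), a composite ETS and interferon factor motif (GGAA, 2 bases of any kind, then GAAA, in 2.72%), an interferon response motif (GAAA, 2 bases of any kind, then GAAA, in 3.44%) and the TATA box (TATAAA, in 13.6%). The last letters are the same in both interferon factor motifs, so that they can overlap. The only match among the 3 genes was TATAAA on the strand of *Irf8*, 31 bases before its start.

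In the mouse build GRCm38, *Csf1r* lies on chromosome 18 (61100598 to 61132149, plus strand), where *Hmgxb3* on the minus strand overlaps it. *Csf1* lies on chromosome 3 (107741048 to 107760469, minus strand) and *Spi1* on chromosome 2 (91082390 to 91115756, plus strand), and no annotated gene overlaps either. Chromosome 8 carries *Il34* (110741829 to 110805924, minus strand), overlapped by 2 antisense genes, *Irf8* (120736358 to 120756694, plus strand), overlapped by the coding model *Gm20388* on the same strand, and *Sall1* (89027235 to 89044162, minus strand). Whether reads were counted by strand is not given in the sources used here. Whether the overlapping genes affected the counts of *Csf1r*, *Il34* and *Irf8* was not checked.

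*Csf1r* was highest in microglia in both regions, followed by border macrophages and monocytes. In cortical microglia it measured 3206, 3043 and 3020 CPM in the 3 replicates (3090 ± 101, SD, n = 3), and in hippocampal microglia 3362, 3309 and 3331 CPM (3334 ± 26.7, n = 3). Nearly every microglial cell held a *Csf1r* UMI, 98.95% in the cortex (95% exact interval 98.7 to 99.2) and 99.6% in the hippocampus (99.4 to 99.7). Microglia were 46.4% and 41.6% of kept cells and held 94.3% and 93.9% of the *Csf1r* UMIs of kept cells.

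Border macrophages of the cortex gave 913, 1139 and 1030 CPM of *Csf1r* and those of the hippocampus 1969, 2098 and 2195 CPM. All replicates of border macrophages lay below all of microglia in both regions. Monocytes gave 1164, 965 and 1010 CPM in the cortex (58 cells), which overlapped the border macrophages, and 363, 553 and 516 CPM in the hippocampus (203 cells with a median of 780 UMIs), which lay below them. Erythroid barcodes of the cortex (313) held 505 CPM. In the other classes, vascular, glial and neuronal, *Csf1r* lay between 20.9 and 71.2 CPM in the cortex (7 classes) and between 38.0 and 211 CPM in the hippocampus (10 classes), where neighbours in the order mostly overlapped. The top of that range was hippocampal fibroblasts (51 cells), whose replicates gave 24.1, 152 and 366 CPM, from UMIs in 5 cells, and which came to 111 CPM without the third replicate.

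Those low levels were compared with the microglial RNA in the same barcodes. If all *Csf1r* UMIs of a class came with microglial RNA, their number per UMI of the 10 microglial markers (*P2ry12* and *Tmem119* among them) would equal that in microglia, a ratio of 1. Over glial, endothelial, smooth muscle and erythroid classes the ratio was 0.881 to 1.04 in all 10 pairs of class and region. Of these, cortical astrocytes lay below 1 (0.928, 0.877 to 0.981). With called doublets left out the same 10 pairs ran from 0.774 to 1.04. Cortical astrocytes were then at 0.774 (0.692 to 0.863), and endothelial cells of both regions also lay below 1 (0.821, 0.745 to 0.902, and 0.870, 0.775 to 0.972). Pericytes, outside these pairs, were at 0.885 (0.738 to 1.05) in the cortex and 0.815 (0.720 to 0.919) in the hippocampus. Without called doublets they were at 0.858 and 0.647. Choroid epithelial cells of the hippocampus were at 0.869 (0.752 to 0.998). In cortical fibroblasts the ratio was 0.33, but all 19 *Csf1r* UMIs came from 3 cells of the second replicate, and without it the ratio was 0. In border macrophages it was 4.21 (3.92 to 4.52) in the cortex and 3.60 (3.43 to 3.78) in the hippocampus, and in monocytes 3.43 and 1.68. Myeloid classes thus held *Csf1r* beyond what their microglial marker UMIs carried, and glia and endothelial cells held about as much as those carried or less. Mature neurons reached 1.54 (1.18 to 1.99), but the replicates were 0.85, 4.61 and 0, and with called doublets left out the value was 0.965 (0.668 to 1.35). With each cell thinned to 1000 UMIs, *Csf1r* was found in 94.6% of cortical and 95.75% of hippocampal microglia (unthinned median depths 5472 and 6644 UMIs), against 1.57% and 3.27% of endothelial cells (7123 and 6582 UMIs, 4.72% and 8.85% before thinning).

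**Figure D1:**
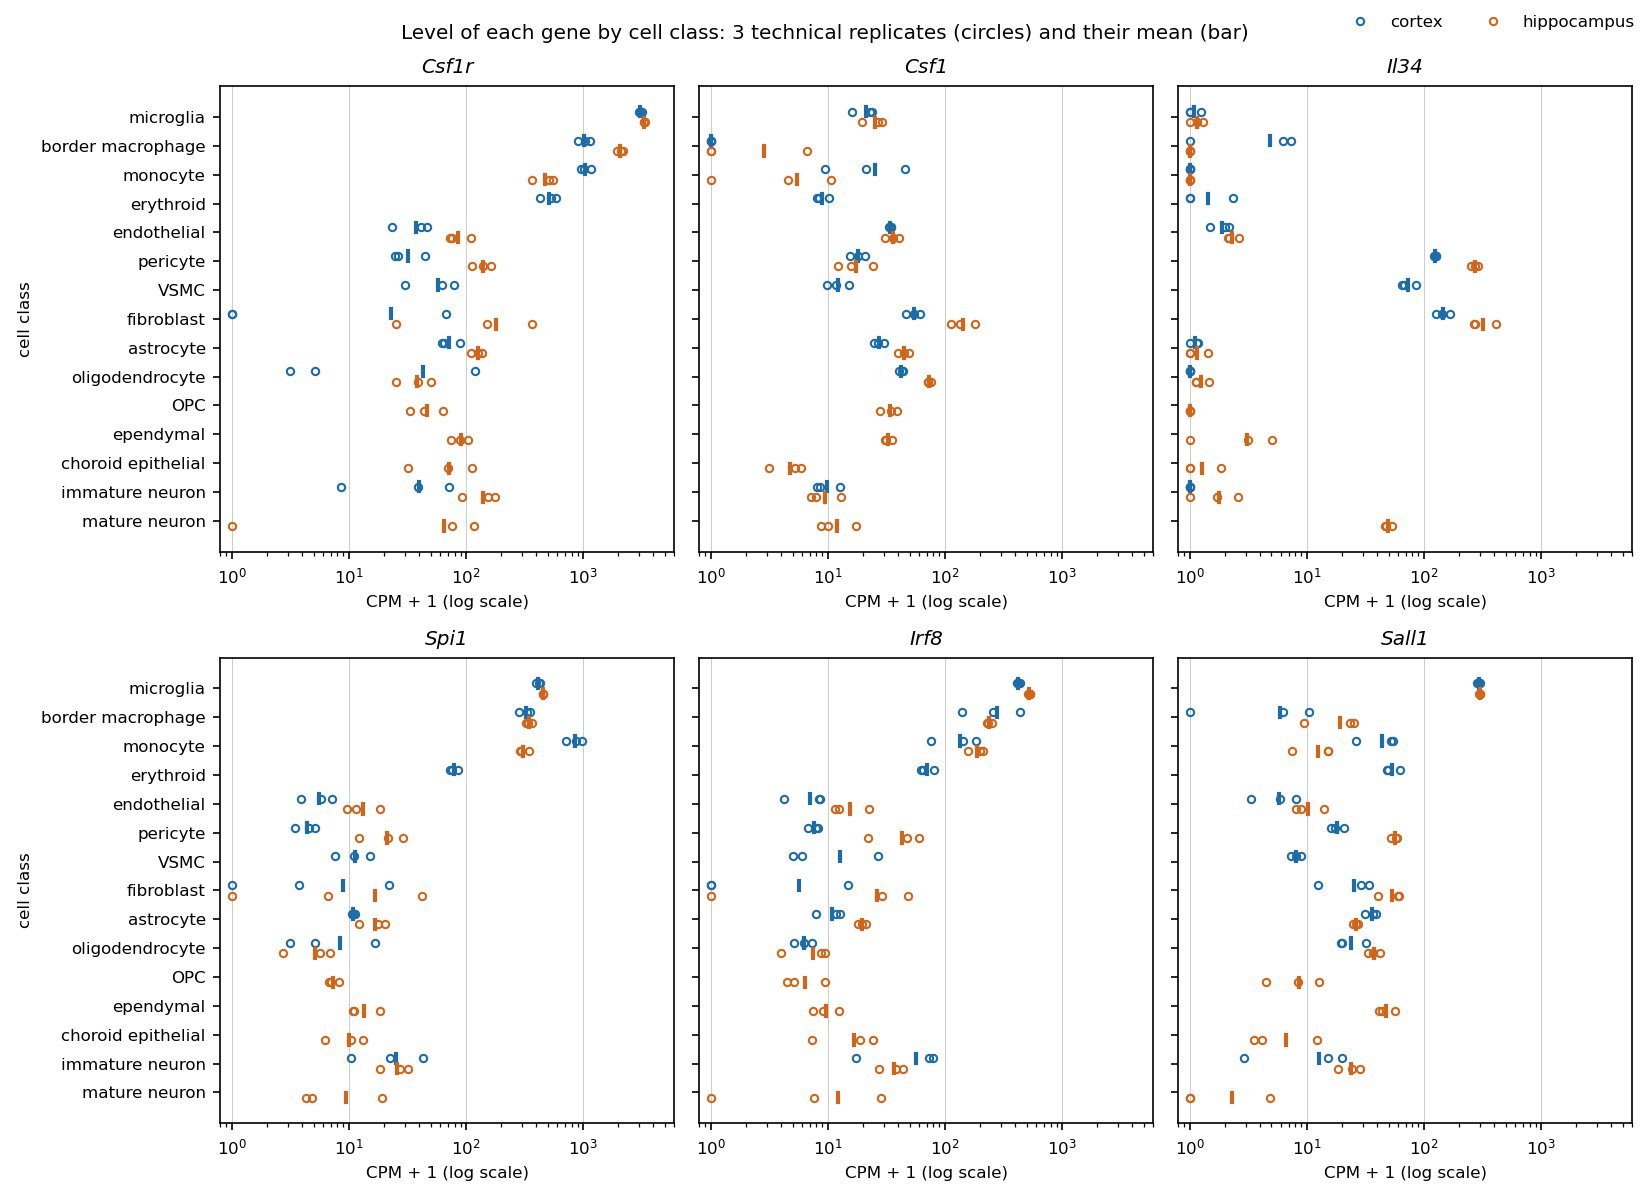
Level of each gene in every named class of at least 50 cells, as CPM + 1 on a log scale, with cortex in blue and hippocampus in orange. Circles are the 3 technical replicates and bars their mean. *Csf1r*, *Spi1* and *Irf8* sit high in the myeloid classes, *Sall1* is highest in microglia, *Il34* stands out in pericytes, VSMCs, fibroblasts and mature neurons, and *Csf1* is spread over most classes.

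Selectivity was read against all genes, and here and below only over named classes of at least 50 cells. In the hippocampus, 2.44% of 8074 genes at or above 10 CPM in microglia were at least 10 times higher there than in every such non-myeloid class. *Csf1r* (15.8 times the next such class), *Spi1* (17.8) and *Irf8* (12.2) were among them, and *Sall1* (5.41) was not. In the cortex 0.151% of 7922 genes passed and none of the 4 did, since the erythroid barcodes, which held *Csf1r* at 0.99 of the ratio in microglia, came next. With these barcodes left out, a choice made after seeing the data, 2.79% passed, with *Csf1r* at 43.4 times and *Spi1* at 16.0 times the next class, whereas *Irf8* (7.76) and *Sall1* (8.39) missed the limit. The 27 cortical B cells, too few to be compared here, held 130 CPM of *Spi1* and 163 CPM of *Irf8*. Microglia held 416 and 423 CPM, so neither gene would pass the limit against B cells. Without the third replicate, *Irf8* in the hippocampus came to 9.83 and missed the limit and in the cortex to 10.1 and passed it, and hippocampal *Csf1r* stood at 22.1 times pericytes and cortical *Spi1* at 28.7 times the next class, the latter 2 still past the limit.

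*Il34*, the second ligand, was found in mural cells, fibroblasts and the mature neuron cluster of the hippocampus and was close to 0 elsewhere. In pericytes, the contractile cells on capillaries, it measured 126, 126 and 120 CPM in the cortex (368 cells) and 254, 289 and 274 CPM in the hippocampus (446 cells). Fibroblasts, which lie in the meninges and around larger vessels, gave 125, 168 and 141 CPM (77 cells) and 410, 270 and 271 CPM (51 cells). In both regions the replicates of pericytes and fibroblasts overlapped. The cortical fibroblasts came from 2 clusters that differed: the one led by *Ptgds* and *Dcn* (57 cells) held 208 CPM, and the one led by *Igfbp6* (20 cells) held 1 UMI in all, or 3.56 CPM (0.09 to 19.8).

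Vascular smooth muscle cells (VSMCs) of the cortex lay below both, at 64.0, 85.5 and 66.4 CPM (204 cells). No hippocampal cluster was named VSMC. Cluster 11 of the hippocampus, led by the smooth muscle genes *Tagln*, *Acta2* and *Myh11*, stayed unnamed and held 84.6 CPM of *Il34* in 270 cells. It was mixed, with 11 endothelial, 9 VSMC, 9 pericyte and 4 fibroblast markers. At a clustering resolution of 1.0 a hippocampal VSMC cluster of 89 cells was named, with 41.3 CPM. Mature neurons of the hippocampus gave 45.5, 52.8 and 46.3 CPM (48.2 ± 4.0, n = 3), with a UMI in 41.0% of 83 cells (30.3 to 52.3), below all replicates of pericytes and above all remaining classes. Their cluster, led by *Reln*, was named from 4 markers, so the value may not hold for other mature neurons. Immature neurons held 0 *Il34* UMIs in the cortex, which allows up to 3.00 CPM, and 0.84 CPM in the hippocampus.

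*Il34* was detected in 65.2% of cortical pericytes (60.1 to 70.1) and in 59.6% of hippocampal ones (54.9 to 64.2), against 0.711% and 0.843% of endothelial cells. Thinned to 1000 UMIs, it was found in 16.3% and 23.2% of pericytes and 0.0669% and 0.14% of endothelial cells. Genes at least 10 times higher in pericytes than in endothelial cells were 4.23% of 8765 in the cortex and 6.5% of 8894 in the hippocampus, and *Il34* was one in both. The classes other than pericytes, fibroblasts, VSMCs and mature neurons summed to 31 *Il34* UMIs over 12248 cortical cells and 43 over 13162 hippocampal cells. In microglia, which carry the receptor, *Il34* was at 0.0855 and 0.146 CPM, from 3 and 6 UMIs.

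Among kept cells, pericytes held 60.0% of cortical and 48.1% of hippocampal *Il34* UMIs with 2.76% and 3.14% of the cells. Of all *Il34* UMIs of kept cells of the same region, cortical VSMCs held 20.4% and fibroblasts 15.8%. In the hippocampus the unnamed cluster 11, which held pericyte as well as VSMC markers, had 32.3% and fibroblasts 11.7%. The barcodes left out by the quality filter, which have no class, held 361 cortical and 327 hippocampal *Il34* UMIs outside these shares.

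*Csf1* had no single source. Fibroblasts were highest in both regions, at 53.2, 45.4 and 60.9 CPM in the cortex and 181, 135 and 112 CPM in the hippocampus. Oligodendrocytes, the myelinating cells, came next, at 42.6, 39.4 and 42.2 CPM (66 cells) and at 74.5, 71.4 and 71.1 CPM (1075 cells). The cortical cluster held 9 markers of oligodendrocyte precursors beside 11 of oligodendrocytes, the hippocampal one 3 beside 10, and only in the hippocampus was a precursor class named. In the cortex the counting intervals of fibroblasts and oligodendrocytes overlapped, whereas in the hippocampus neither replicates nor intervals did.

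Endothelial cells followed in the cortex, at 34.0, 32.4 and 33.4 CPM, above astrocytes at 29.1, 24.0 and 25.9 CPM. In the hippocampus astrocytes gave 48.7, 38.5 and 43.4 CPM and endothelial cells 39.4, 34.8 and 30.1 CPM, so that their order turned and the replicates overlapped. Oligodendrocyte precursors (33.5 CPM, 261 cells) and ependymal cells (31.9 CPM, 211 cells) of the hippocampus overlapped the endothelial cells. Astrocyte levels differed among clusters of different depth: shallow astrocytes had lower *Csf1*, 13.7 CPM in cortical cluster 5 against 27.7 CPM in the main cluster, and 16.7 CPM in hippocampal cluster 8 against 46.9 CPM.

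Microglia gave 15.2, 22.1 and 22.9 CPM of *Csf1* in the cortex and 18.7, 25.8 and 28.3 CPM in the hippocampus, overlapping pericytes (17.2 and 16.5 CPM). Border macrophages were lowest, with 0 UMIs in the cortex, which allows up to 4.95 CPM, and 2 UMIs in the hippocampus. By their share of the *Csf1* UMIs of kept cells, endothelial cells (35.6%), microglia (31.5%) and astrocytes (20.9%) came first in the cortex. In the hippocampus oligodendrocytes (39.8%), microglia (23.3%) and astrocytes (13.8%) did. These shares depend on the number of cells recovered of each type: oligodendrocytes were 66 of the cortical cells and 1075 of the hippocampal cells.

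Within microglia, *Csf1* was concentrated in 1 subcluster per region, although the subclusters were built without the 6 genes. Cortical subcluster 2 (385 cells, led by *Ccl4*, *Csf1* and *Cst7*) gave 71.6, 160 and 162 CPM, against 3.64 to 31.4 CPM in the other 10 subclusters of at least 50 cells. Hippocampal subcluster 3 (324 cells, led by *Gas2l3*, *Ccl4* and *Csf1*) gave 103, 174 and 222 CPM, against 9.43 to 37.1 CPM in the other 8. The replicates of these subclusters lay above those of every other subcluster.

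The level was 12.3 times (10.6 to 14.3) that of the remaining microglia in the cortex and 12.1 times (10.7 to 13.7) in the hippocampus. Genes at least 2 times higher there were 2.09% of 8216 and 2.93% of 8396. With 6.23% and 5.49% of the microglia, the subclusters held 50.1% and 47.0% of microglial *Csf1* UMIs. Since clusters are built from genes of the same cells, these ratios describe the subclusters and were not tested. The first replicate was the lowest in both regions, with 6.58 and 8.08 times the remaining microglia, against 12.4 to 15.7 times in the others.

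In the same subclusters the receptor was lower. *Csf1r* was at 0.82 times the remaining microglia in the cortex (2664, 2572 and 2475 CPM) and at 0.74 times in the hippocampus (2544, 2570 and 2439 CPM). *Sall1* was at 0.71 times (214, 183 and 239 CPM) and 0.63 times (204, 206 and 171 CPM), whereas *Spi1* stood at 0.92 and 0.93 and *Irf8* at 1.11 and 1.07 times. Genes at least 1.5-fold lower there were 5.16% in the cortex and 9.72% in the hippocampus, and of the 4 only hippocampal *Sall1* was past that limit. Immediate early genes, which respond to handling of the tissue, summed to 4632 and 6099 CPM in these subclusters, within the 806 to 27278 CPM and 2543 to 23903 CPM of the others, and their part in the result was not tested. The lowest cortical *Csf1r* (2152 CPM) and *Sall1* (145 CPM) were in subcluster 6, whose median depth was 0.27 of that of cortical microglia.

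**Figure D2:**
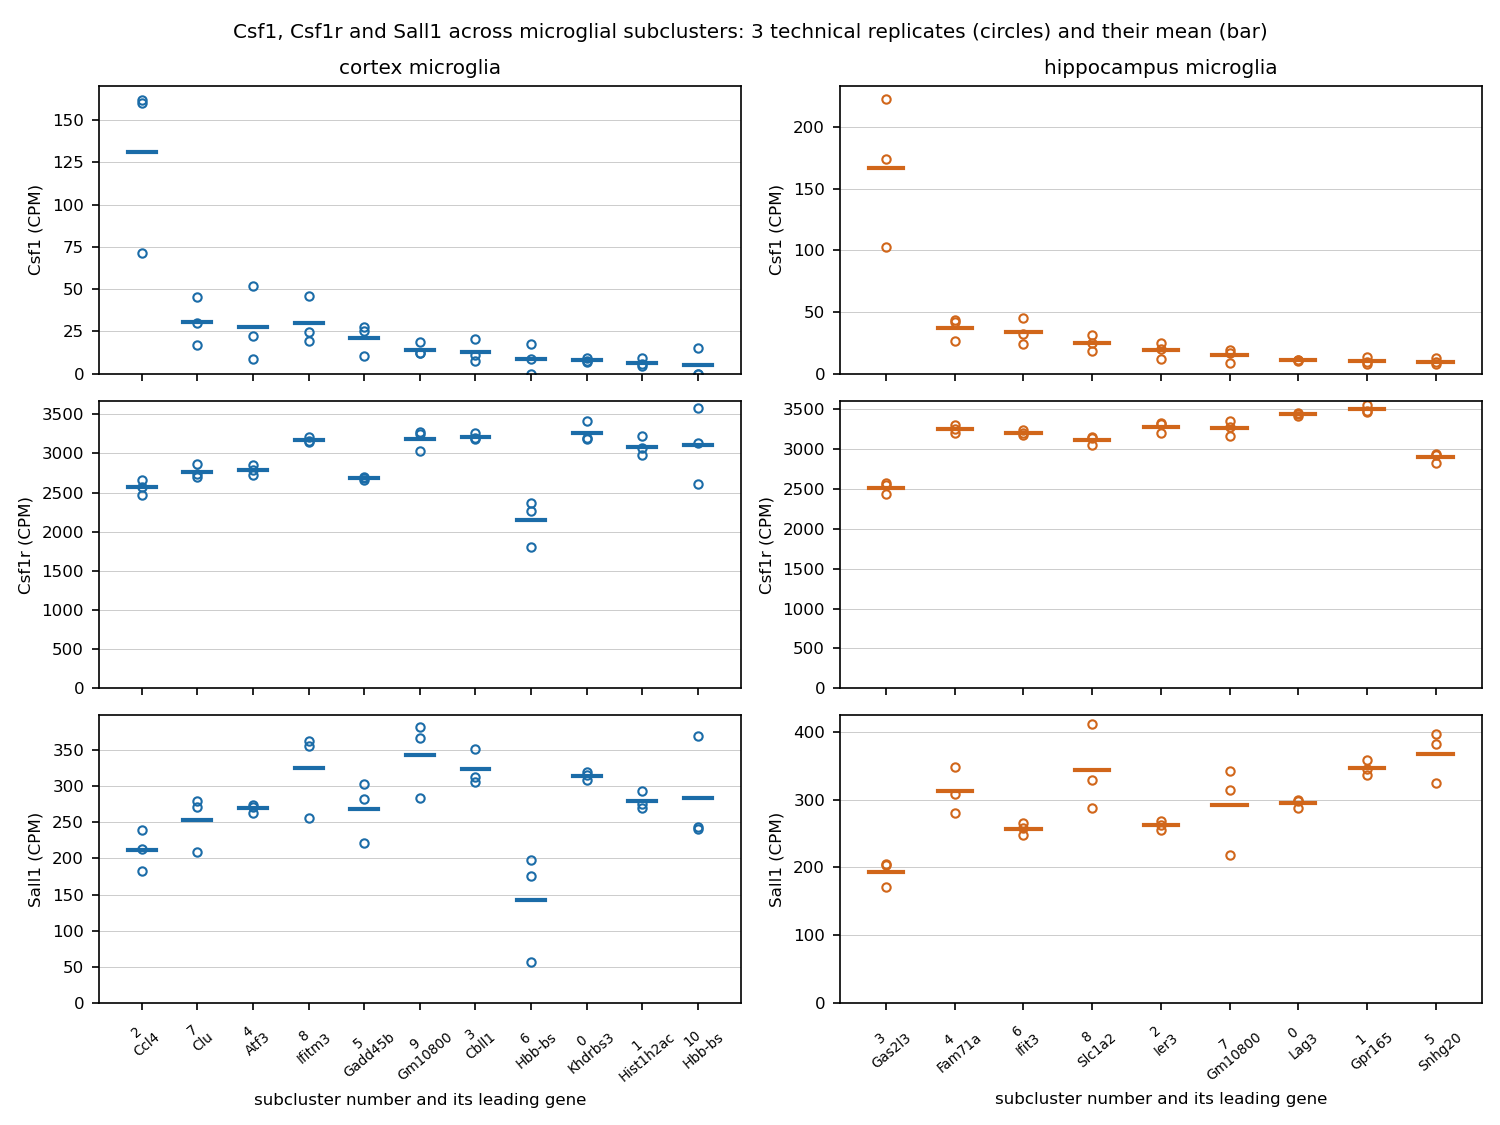
*Csf1*, *Csf1r* and *Sall1* in CPM (linear axes from 0) across microglial subclusters of at least 50 cells, ordered by *Csf1* and named by number and first leading gene. Circles are the 3 technical replicates and bars their mean. The leftmost subcluster of each region stands at 133 and 166 CPM of *Csf1*, over all cells of the subcluster, and is low in *Csf1r* and *Sall1*.

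*Spi1* was highest in monocytes in the cortex, at 869, 713 and 990 CPM, above microglia at 393, 422 and 432 CPM and border macrophages at 285, 350 and 335 CPM. In the cortical monocyte cluster 8 monocyte markers passed, but its first leading gene was *S100a8*, which is on the neutrophil list used here. Neutrophil markers were not summed in it, and their part in its *Spi1* level was not tested. In the hippocampus microglia were highest, at 451, 453 and 458 CPM, border macrophages gave 323, 338 and 369 CPM, and monocytes 288, 292 and 346 CPM overlapped the macrophages. The hippocampal monocytes were a mixed and shallow cluster, in which 4 monocyte markers passed and *Cd74*, *H2-Ab1* and *Nkg7*, genes of antigen presentation and of cytotoxic lymphocytes, led. Their T and NK cell markers (9 of 11 with a UMI) summed to 2364 CPM, from 1345 to 4402 over replicates, against 97.3 CPM (3 of 11, 71.4 to 126) in the cortical monocytes, and the part of this in the *Spi1* and *Csf1r* levels was not tested. In these cells a level over all UMIs and a share of cells differ: *Spi1* was found in 27.1% of them, against 100% of the 58 cortical monocytes, and after thinning to 1000 UMIs in 22.8% and 59.7%. Per microglial marker UMI, *Spi1* was 9.83 and 4.33 times the microglial ratio in border macrophages and 20.7 and 8.02 times in monocytes. Vascular, glial and neuronal classes of at least 50 cells mostly stayed near 1, with a median of 0.96 in both regions. The 27 B cells of the cortex, at 130 CPM of *Spi1*, were at 13.2 times (7.56 to 21.5).

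*Irf8* was highest in microglia in both regions, at 410, 423 and 435 CPM in the cortex and 531, 516 and 528 CPM in the hippocampus. Border macrophages gave 259, 139 and 436 CPM in the cortex, a spread that overlapped microglia, and 230, 251 and 229 CPM in the hippocampus, which did not. Monocytes held 131 and 187 CPM, and the 27 B cells of the cortex, in which IRF8 is also known to act, 163 CPM. Cortical immature neurons held 16.6, 78.5 and 72.1 CPM of *Irf8*, 10.6 times (8.18 to 13.4) what their microglial marker UMIs carried, but a UMI was found in 10.9% of the 119 cells, and the replicates ran from 1.97 to 27.0 times. In those cells *Spi1* was at 5.13 times, from 1.17 to 15.7. Hippocampal immature neurons were at 1.59 times for *Irf8* and 1.30 times for *Spi1*. Pericytes of the hippocampus, at 42.9 CPM of *Irf8*, were at 1.60 times (1.28 to 1.99). With called doublets left out they were at 2.95 times (2.00 to 4.19).

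*Sall1* was highest in microglia and low in border macrophages. It measured 294, 286 and 300 CPM in cortical and 300, 296 and 301 CPM in hippocampal microglia, with overlapping replicates. Border macrophages held 4 UMIs in the cortex (5.37 CPM, 1.46 to 13.7) and 13 in the hippocampus (16.6 CPM, 8.86 to 28.5). That was less than their microglial marker UMIs carried, at ratios of 0.23 (0.062 to 0.58) and 0.32 (0.17 to 0.55). Genes at least 10 times higher in microglia than in border macrophages were 2.74% in the cortex and 1.76% in the hippocampus, and of *Csf1r*, *Spi1*, *Irf8* and *Sall1* this held for *Sall1* alone.

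*Sall1* was also found outside microglia, mainly in glia, pericytes and fibroblasts. In oligodendrocytes it measured 19.2, 31.1 and 18.4 CPM in the cortex and 41.5, 35.7 and 32.6 CPM in the hippocampus, with a UMI in 33.3% and 49.3% of cells. Over the microglial ratio that was 7.08 times (4.81 to 10.1) and 11.2 times, although the cortical replicates gave 66.8, 56.6 and 1.75 times, and with called doublets left out it was 7.08 and 33.4 times. Astrocytes held 38.2, 35.7 and 30.5 CPM and 23.9, 25.4 and 26.3 CPM, 4.80 and 2.19 times the ratio, or 12.4 and 7.22 times with called doublets left out. Pericytes were at 17.0 and 55.3 CPM (5.07 and 3.63 times), ependymal cells at 47.3 CPM (5.98 times) and fibroblasts at 25.3 and 51.1 CPM (4.20 and 2.61 times). With called doublets left out these came to 4.90 and 10.8 times in pericytes, 17.4 times in ependymal cells and 4.96 and 3.18 times in fibroblasts. Oligodendrocyte precursors of the hippocampus, at 7.99 CPM, were at 1.89 times (1.28 to 2.68), or 2.45 times (1.60 to 3.59) with called doublets left out. Endothelial cells, at 4.76 and 9.37 CPM, were at 1.33 (1.10 to 1.60) and 1.17 times (0.990 to 1.38). With called doublets left out endothelial cells were at 1.32 (1.02 to 1.68) and 1.41 times (1.03 to 1.89). *Sall1* was found in 2.06% and 3.65% of them (0.323% and 0.599% after thinning, against 25.1% and 25.8% of microglia). Cortical VSMCs, at 7.12 CPM, were at 1.15 times (0.671 to 1.84), and immature neurons at 2.95 and 1.79 times.

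**Figure D3:**
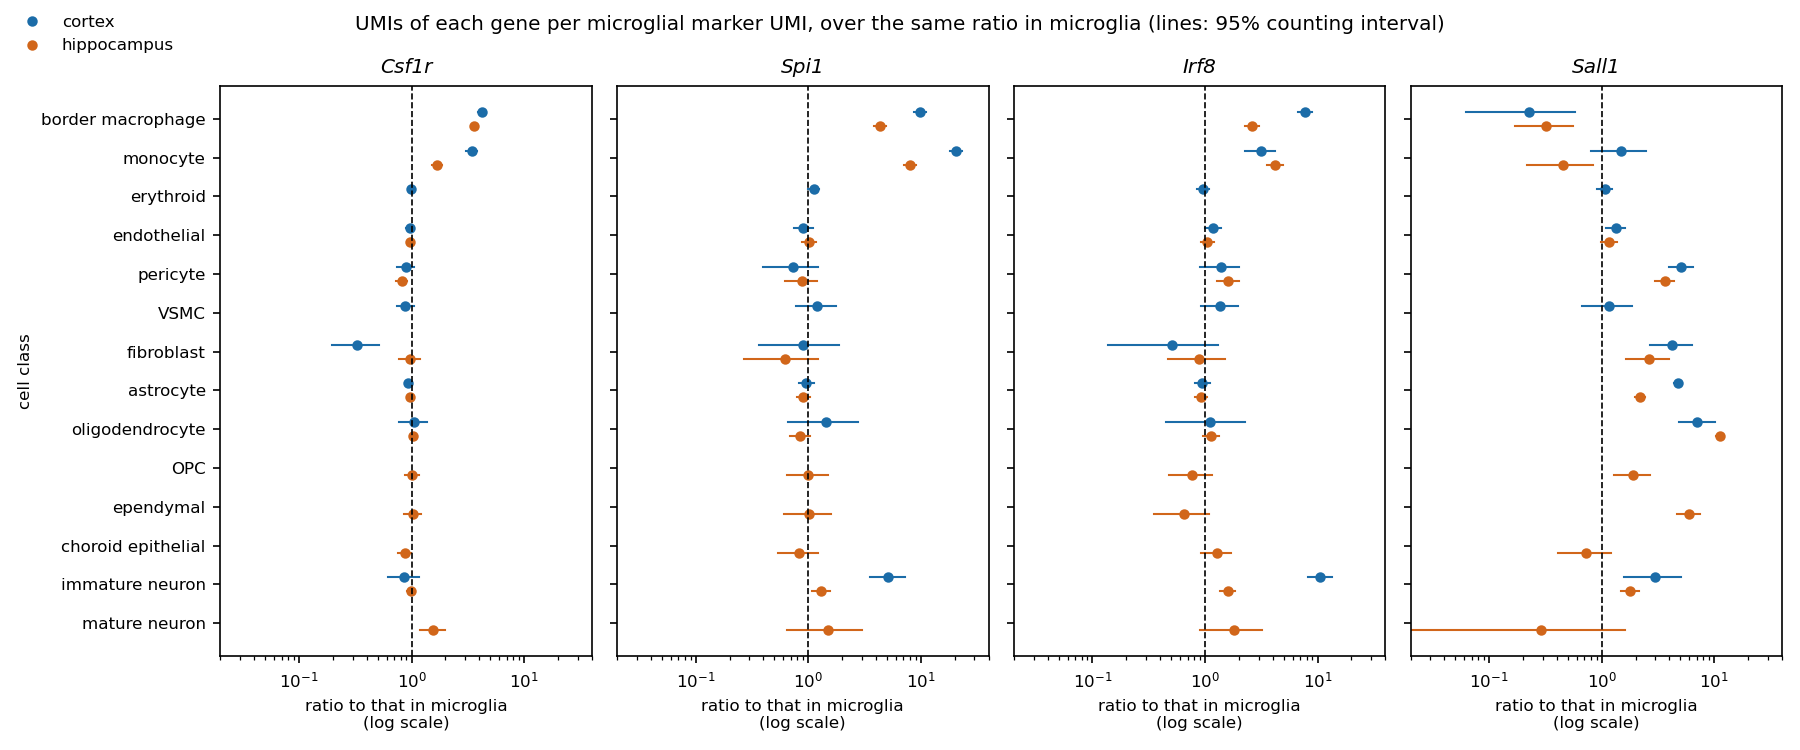
UMIs of *Csf1r*, *Spi1*, *Irf8* and *Sall1* per microglial marker UMI in each class, divided by the same quantity in microglia, on a log scale with 95% counting intervals, cortex in blue and hippocampus in orange. The dashed line at 1 is the ratio in microglia. *Csf1r* lies at the line in glia and endothelial cells, or slightly below it in cortical astrocytes. The myeloid classes lie above it for *Csf1r*, *Spi1* and *Irf8*. *Sall1* lies above it in astrocytes, oligodendrocytes, pericytes and ependymal cells and below it in border macrophages.

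Set side by side, the regions gave like levels in microglia. The log2 ratio of hippocampus over cortex was 0.11 for *Csf1r* (0.10 to 0.12), 0.12 for *Spi1* (0.09 to 0.16), 0.31 for *Irf8* (0.28 to 0.34) and 0.03 for *Sall1* (-0.01 to 0.06). With median-of-ratios and TMM scaling *Csf1r* came to 0.00235 and 0.02 and *Sall1* turned to -0.08 and -0.06. None of these 4 was past 1.5-fold, where 3.17% of 8241 genes were higher and 2.88% lower, and the median of all genes was shifted by 0.083. *Csf1* in microglia was at 0.26 (0.12 to 0.41) with overlapping replicates.

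Ligand levels were higher in several classes of the hippocampus. *Csf1* was higher by 0.72 in astrocytes (0.54 to 0.90), 0.81 in oligodendrocytes (0.42 to 1.22) and 1.32 in fibroblasts (0.75 to 1.90), with no overlap of replicates. In the same classes 10.9%, 11.7% and 28% of genes were at least 1.5-fold higher, against 6.33% in endothelial cells. With cells classed by their own markers the ratio in oligodendrocytes was 0.39, and with oligodendrocytes and their precursors joined, since the cortical cluster held markers of both, 0.69 (0.31 to 1.11). In endothelial cells the ratio for *Csf1* was 0.06 (-0.10 to 0.22), and the replicates overlapped. *Il34* was higher by 1.04 in fibroblasts (0.67 to 1.40). With the cortical cluster led by *Igfbp6* left out, in a comparison added after seeing the data like that of the joined oligodendrocytes, the ratio was 0.51 (0.15 to 0.88), under the 1.5-fold limit, and that for *Csf1* was 1.16 (0.54 to 1.79).

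*Il34* in pericytes was higher by 1.13 (0.96 to 1.31), where 22% of genes were at least 1.5-fold higher and 16% lower, but the ratio was close to 0 among cells low in an endothelial marker. Of the 368 cortical cells, 205 held more than 1 UMI of *Cldn5*, a tight junction gene of endothelial cells, and these gave 95.3 ± 5.75 CPM of *Il34* (SD, n = 3). Of the 446 hippocampal pericytes, 16 did. Among cells with at most 1 *Cldn5* UMI, the cortex (163 cells) gave 282 CPM and the hippocampus (430 cells) 270 CPM, a log2 ratio of -0.07 (-0.32 to 0.19), in a comparison added after seeing the data. With cells classed by their own markers and no clustering the ratio was -0.21.

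*Csf1r* in border macrophages was higher in the hippocampus by 0.99 (0.86 to 1.11), where 32.3% of genes were at least 1.5-fold higher. With cells classed by their own markers the ratio was 0.14, from 1767 CPM in 82 cortical and 1945 CPM in 126 hippocampal cells.

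**Figure D4:**
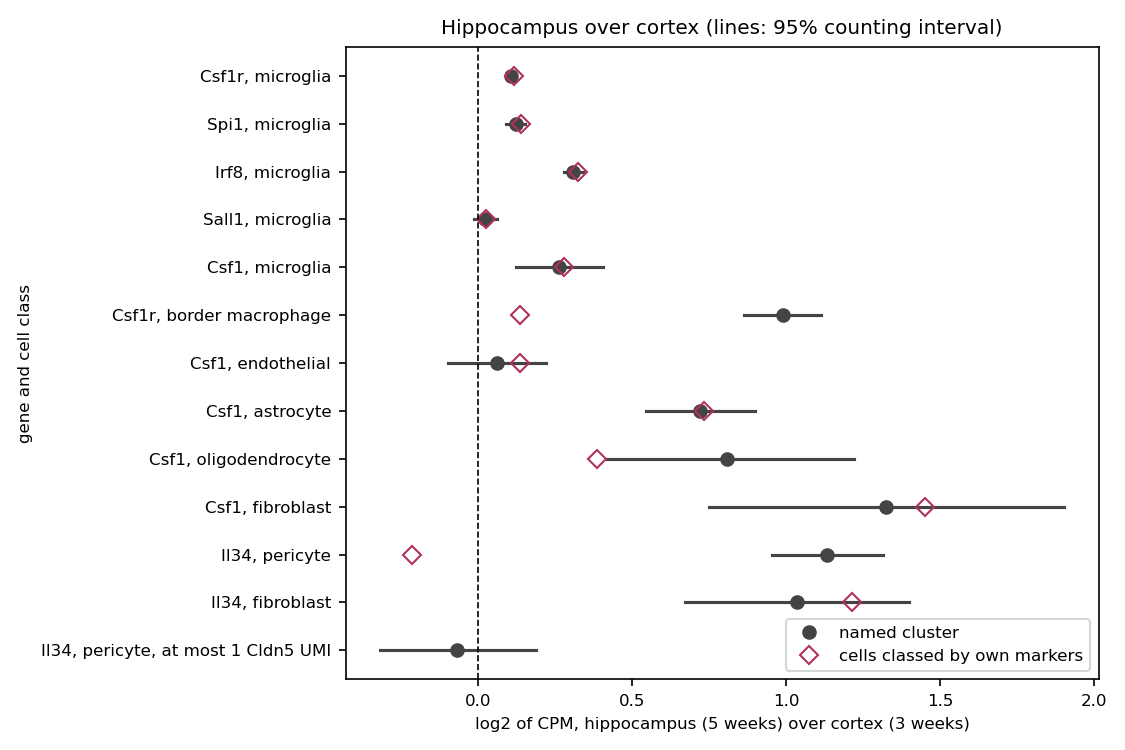
Log2 of CPM in the hippocampus (5 weeks) over that in the cortex (3 weeks) for a gene in a class. Filled circles with 95% counting intervals are the named clusters, open diamonds the same from cells classed by their own markers. *Il34* in pericytes (1.13 and -0.21) and *Csf1r* in border macrophages (0.99 and 0.14) depend on how cells are classed, and the 5 microglial values do not. *Csf1* in oligodendrocytes is past the 1.5-fold limit by cluster and under it by own markers.

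Other genes of the pathway were described by their highest class and by their level in microglia. Genes whose highest class was microglia were 11.1% of 12825 in the cortex and 7.73% of 14089 in the hippocampus, and 27.3% and 18.8% were highest in a myeloid class (microglia, border macrophages or monocytes). Of the 6 genes, 3 were highest in microglia in the cortex (*Csf1r*, *Irf8* and *Sall1*) and 4 in the hippocampus, with *Spi1* added. Counts for the other genes are given for the cortex first and then the hippocampus. Of 14 related receptors and ligands, 2 and 3 were highest in microglia and 6 and 7 in a myeloid class. *Tgfbr1*, a receptor of transforming growth factor beta, was at 988 and 1039 CPM in microglia. Of 23 signalling partners of the receptor, 4 and 10 were highest in microglia and 20 and 18 in a myeloid class. *Trem2*, a lipid-sensing receptor, was 40.3 and 18.4 times the next non-myeloid class without the erythroid barcodes.

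Of 36 further transcription factors, 13 and 12 were highest in microglia and 25 and 22 in a myeloid class. *Cebpa*, a myeloid factor, was at 355 and 403 CPM in cortical and hippocampal microglia, 6.96 and 7.88 times the next non-myeloid class, and the cortical ratio was 14.3 with the erythroid barcodes left out. *Ikzf1*, a lymphoid and myeloid zinc finger factor, was at 216 CPM in microglia of both regions, 5.12 and 17.1 times the next non-myeloid class. Of 10 genes known to respond to the receptor, 1 and 2 were highest in microglia and 7 and 9 in a myeloid class. Between regions, 1 of 7 receptors and ligands, 0 of 21 partners, 1 of 29 factors and 5 of 10 response genes at or above 10 CPM were at least 1.5-fold higher in hippocampal microglia, beside 3.17% of all genes, and none was lower, beside 2.88%, with median log2 ratios of 0.28, 0.06, 0.20 and 0.42 beside the 0.083 of all genes. The lists were chosen with earlier results of these data known, so these counts are a description only. The response genes with the largest ratios were *Bcl2* (1.09), which blocks cell death, and *Ccnd1* (1.06), a cyclin of the G1 phase. *Sall3*, a relative of *Sall1*, was higher by 0.61 in hippocampal microglia and *Cebpb* lower by a log2 ratio of -0.51.

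The genes most alike were found by Pearson's r of log2(CPM + 1) over 24 points, each a class in a region, among 14395 genes. Points of a region share libraries and microglial RNA, so r is a description. *Csf1r* was most like *Ly86*, *Ctss*, *Tbxas1*, *Cd68* and *Fgd2* (0.98 to 0.99), *Spi1* like *Tyrobp*, *Fcer1g*, *Ncf1*, *Cd53* and *Alox5ap* (0.98 to 0.99), and *Irf8* like *Cd53*, *Laptm5*, *Arhgap45*, *Cd84* and *Cyth4* (0.97 to 0.98). *Sall1* had lower values, with *Dtx4*, *Tmem119*, *A830008E24Rik*, *Gpr84* and *Lrrc39* at 0.79 to 0.82. *Il34* was most like *C1qtnf1*, *Bmp5*, *Foxd1*, *Gpc3* and *C1qtnf2* (0.93 to 0.94). *Csf1* was most like *Blzf1*, *Ino80dos*, *Tmem110*, *Rnf103* and *Tapt1* (0.75 to 0.82) over classes, and like *Cd83*, *Eif4a1*, *Cadm1*, *Hif1a* and *Hspa5* (0.82 to 0.86) over the 20 microglial subclusters.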

How the data were processed

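For each of the 6 libraries the authors deposited raw UMI counts per gene and barcode, without normalization. The paper and the processing notes name Cell Ranger 5.0.1 with mm10, whereas the headers of the cortical matrices give 3.0.1 and those of the hippocampal matrices 3.1.0. The tissue had been digested with dispase II, papain and DNase I, and myelin had been removed with Percoll. Prep 2 was not analysed here.

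A barcode was kept when it had 250 to 6000 genes and less than 25% of its UMIs were mitochondrial. Libraries of a region were integrated by canonical correlation analysis and clustered at a resolution of 0.5 with Seurat 5.3.0 (R 4.3.3), with the 6 genes left out of the variable genes. A cluster was named from the list with the largest share of passing markers. At least 3 of them had to be found in 20% of its cells at 2 times their level elsewhere. It stayed unnamed where another class had more genes among its leading genes, as in hippocampal cluster 11. The same held for a shallow cluster with none of its own markers among its leading genes. The 6 genes, marker lists and pathway lists were chosen with earlier results of these data known. Doublets were called with Scrublet through scanpy 1.11.5 and kept in their clusters.

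Deposited counts were summed by class and library and given as CPM. Intervals are exact Poisson (levels, ratios) and Clopper-Pearson (shares) at 95% and cover counting error only. Ratios between regions use the 27514 identifiers listed in both, and a count of genes past 1.5-fold adds 1 CPM to both sides. With 1 biological sample a region no test was made and no p-value is given. Scripts were tested on simulated data. The named genes are the 6, the 5 genes most alike to each, and in each list some of those with the highest and lowest ratios, and a factor that this rule also picks is not reported here. Alternatives were other resolutions, no integration, classing cells by their own markers, a 10% mitochondrial limit, doublets or shared barcodes left out, thinning to 2000 UMIs, other scalings (edgeR 4.0.16 for TMM) and each replicate left out. The promoters come from RefSeq (GRCm38.p6) and gene positions from GENCODE M21.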

Additional observations from a re-analysis of the deposited data

Results flagged for a closer look

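For 5 pairs of classes, a gene was higher in one class in all 3 cortical replicates and higher in the other in all 3 hippocampal replicates. These differences were not tested, and region, age and preparation cannot be told apart. *Csf1* in astrocytes was 0.792 of that in endothelial cells in the cortex and 1.25 times it in the hippocampus. *Spi1* in border macrophages was 0.388 of that in monocytes in the cortex and 1.10 times it in the hippocampus, and *Spi1* in microglia was 0.490 and 1.47 times that in monocytes. The hippocampal monocytes had a median of 780 UMIs, against 5040 in the cortex, and were led by antigen presentation and lymphocyte genes, and the part of either in these values was not tested. *Sall1* in astrocytes was 2.06 times that in pericytes in the cortex and 0.456 of it in the hippocampus, and *Sall1* in monocytes was 2.50 and 0.207 times that in pericytes. Those monocytes held 14 and 10 *Sall1* UMIs, which per microglial marker UMI were 1.47 (0.804 to 2.47) and 0.451 (0.216 to 0.830) times the ratio in microglia, so no *Sall1* beyond that of the microglial RNA was detected in them. Cortical pericytes held more than 1 *Cldn5* UMI far more often than hippocampal ones, and the part of this in the *Sall1* values was not tested.

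Signal was also present in data outside the comparisons. The 4617 cortical barcodes left out held *Csf1r* at 15.5 CPM and the 1126 hippocampal ones at 65.4 CPM. They held *Il34* at 11.9 and 13.1 CPM (361 and 327 UMIs) and *Csf1* at 17.0 and 33.8 CPM (516 and 843 UMIs). The shares of UMIs by class do not include these barcodes. The unnamed hippocampal cluster 11, led by smooth muscle genes, held *Il34* at 84.6 CPM.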

How the results depend on the processing

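No paired analysis was possible because the results come from no test and the replicates are technical. Of the alternative values of the main results, 139 stayed close to the value as reported, 23 moved and 3 turned direction, and of those for single levels and ratios 442 stayed and 59 moved. Leaving out each replicate in turn moved none of the main results for which it was run. A ratio counted as moved only past the SD over the replicates, and a count only past 1.5-fold. Leaving out 1 of 3 replicates shifts their mean by less than that SD, so this outcome was nearly fixed and is no sign of stability. Leaving out replicates was not run for the shares of genes selective for microglia or the counts of pairs above the ratio in microglia. Without the third replicate, *Irf8* crossed the limit of 10 times the next non-myeloid class, erythroid barcodes and classes under 50 cells aside. It went from 12.2 to 9.83 in the hippocampus and from 7.76 to 10.1 in the cortex. The log2 ratio of hippocampus over cortex in microglia, with median-of-ratios and TMM scaling in turn, was 0.00235 and 0.0205 for *Csf1r*, 0.0192 and 0.0376 for *Spi1*, 0.21 and 0.22 for *Irf8*, and -0.0796 and -0.0614 for *Sall1*. For *Csf1r* in border macrophages it was 1.28 at a resolution of 0.2, 1.43 without integration, 0.14 by own markers, 0.59 with the 6 genes among the variable genes, 0.64 as a mean over cells, 0.76 with median-of-ratios and 0.77 with TMM scaling. For *Il34* in pericytes it was -0.000255 at a resolution of 1.0, -0.21 by own markers, -0.0662 for cells with at most 1 *Cldn5* UMI (added after seeing the data), 0.55 as a mean over cells, 0.98 with median-of-ratios and 0.96 with TMM scaling, and a resolution of 0.2 and merging without integration gave no value for it. Genes as selective for microglia were 4.42% with no filter, 0.0977% at 50 CPM and 2.79% without erythroid barcodes (added after seeing the data) in the cortex, and 4.22% and 4.92% with no filter and at 50 CPM in the hippocampus. The cause was not tested. Small classes limit the levels: 3 UMIs are 4.03 CPM in cortical border macrophages.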
